A study of Mus musculus with 24 samples.

Results

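Adult livers of mice that carry the human form of the nuclear receptor CAR were compared with wild type livers while no CAR agonist was given. The members are the 3 libraries labelled hCAR-TG, day 60, corn oil and the 3 labelled wild type (WT), day 60, corn oil, 6 of the 24 libraries of the series. All are liver RNA of C57BL/6 mice, and hCAR-TG is a knock-in of human CAR. The series holds 8 groups of 3: the adult hCAR-TG livers given CITCO, an agonist of human CAR, the adult WT livers given TCPOBOP, an agonist of mouse CAR, and the same 4 kinds of group at day 5, called newborns here. Corn oil is the vehicle of both agonists, so every mouse of the comparison was dosed, with oil alone. The labels give no dose, no sex, no knock-in construct and no statement that replicates are separate animals. The p-values therefore measure the spread between samples within a group, pooled over all 8 groups of the series. That spread may be technical.

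CAR is the product of Nr1i3 and works in hepatocytes as a partner of the retinoid X receptor RXR. In resting liver it is held in the cytoplasm, and agonists or phosphorylation signals move it to the nucleus, where it switches on genes for the oxidation, conjugation and export of drugs and bile pigments. Cyp2b10, a cytochrome P450 of mouse liver, is its best known target. The comparison asks how the vehicle livers of the 2 genotypes differ, which is the baseline from which any response to an agonist is measured.

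Expression is given as FPKM, fragments scaled by transcript length and library size, so levels of different genes can be set beside each other. The sums of FPKM were 451729.8 to 456762.9 in the hCAR-TG livers and 446595.3 to 460580.7 in the WT livers, and the absolute read depth is unknown. Summed over 11 hepatocyte markers, the libraries held 56701.5 to 64642.9 FPKM in hCAR-TG and 51577.6 to 62371.0 FPKM in WT, as the tissue label says. Replicate 1 of hCAR-TG stood apart through fat cell transcripts: Cfd, which encodes adipsin, was at 28.8 FPKM, against at most 0.354 FPKM in the other 5 libraries, and the adipocyte hormone gene Adipoq was at 4.83 FPKM, against at most 0.105. The labels name a read file for each library, and the number that closes its name, here called the file suffix, has no stated meaning. It was 2 for all 3 hCAR-TG livers and 1 for all 3 WT livers, so that suffix and genotype cannot be told apart within these 6 libraries. Only the adult TCPOBOP livers, with suffixes 1, 1 and 2, link the 2 values, and fits with the suffix as a term rest on them.

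Of 12282 tested genes, 602 differed between hCAR-TG and WT vehicle livers (limma adjusted p under 0.05), which is 4.9% of those tested. In hCAR-TG 375 were higher (3.05%) and 227 lower (1.85%), and the median log2 change of all tested genes was -0.0002. Most differences were small: 56 of the 602 reached 2-fold, 34 higher and 22 lower. The 3 libraries of each genotype did not overlap in 580 of the 602, where 24.9% of all tested genes had groups that did not overlap. Without hCAR-TG replicate 1 there were 336 calls (2.74%), 203 higher (1.65%) and 133 lower (1.08%), of which 317 were among the 602. Without WT replicate 2 there were 361, of which 339 were shared. From the 6 compared libraries alone there were 230, of which 208 were shared. With the file suffix as a term, 109 genes were called (0.887%), 80 higher (0.651%) and 29 lower (0.236%), and 86 of them were among the 602. A fit of the 12 adult libraries alone called 616 (5.02%), 367 higher (2.99%) and 249 lower (2.03%), and rescaling by median of ratios gave 686 (5.59%), 385 higher (3.13%) and 301 lower (2.45%).

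The targeted gene went with the labels. Mouse Nr1i3 (chr1:171213970-171218845, mm10) had 6.94, 9.23 and 9.93 FPKM in hCAR-TG livers, against 53.4, 74.2 and 76.9 FPKM in WT livers. Every hCAR-TG library lay below every WT library, and the mean was 7.83 times lower (log2 change -2.83 ± 0.18, limma adjusted p = 4e-09). A remainder of 8.70 ± 1.56 FPKM (SD, n = 3) was still counted in hCAR-TG. Whether fragments of the human transcript were assigned to this mouse gene was not tested, and these values give no amount of human CAR RNA.

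Among 31 tested nuclear receptors and partner proteins, Nr1i3 included, 3 were higher and 4 lower in hCAR-TG, with a median log2 change of -0.03. That is 22.6% called, against 4.9% of all tested genes. With the suffix as a term 0 were higher and 1 lower, Nr1i3. The xenobiotic receptor PXR, product of Nr1i2, had 23.2, 23.6 and 21.3 FPKM in hCAR-TG and 19.6, 25.3 and 21.98 FPKM in WT, overlapping values (log2 change 0.03 ± 0.11, limma adjusted p = 0.957). Ppara, the fatty acid sensor of hepatocytes, was at 18.4, 28.1 and 26.7 FPKM in hCAR-TG livers and 35.1, 45.96 and 49.6 FPKM in WT livers, with no overlap (log2 change -0.82 ± 0.13, limma adjusted p = 0.000385). Its relative Ppard went the other way, with 10.6, 8.38 and 9.08 FPKM in hCAR-TG and 6.54, 2.96 and 2.74 FPKM in WT, where WT replicate 1 was the highest of its group (log2 change 1.10 ± 0.16, limma adjusted p = 0.000264). Thra, the thyroid hormone receptor alpha gene, was higher by 0.53 ± 0.08 on the log2 scale (adjusted p = 0.00028), and the hepatocyte master regulator Hnf4a was lower (log2 change -0.35 ± 0.07, adjusted p = 0.0038). The remaining calls were the retinoic acid receptor gene Rarb, higher (0.40 ± 0.10), and Nr1d2, taken up with the clock genes. The Rarb call was lost without hCAR-TG replicate 1 or WT replicate 1 (adjusted p 0.0728 to 0.125). Of the 18 tested cofactors and cytoplasmic partners of CAR, limma called 0. An unadjusted p under 0.05 was found for 1 of the 18, against 2067 of all 12282 tested genes. Groups did not overlap in 4 of the 18, against 24.9% of all tested genes.

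**Figure D1:**
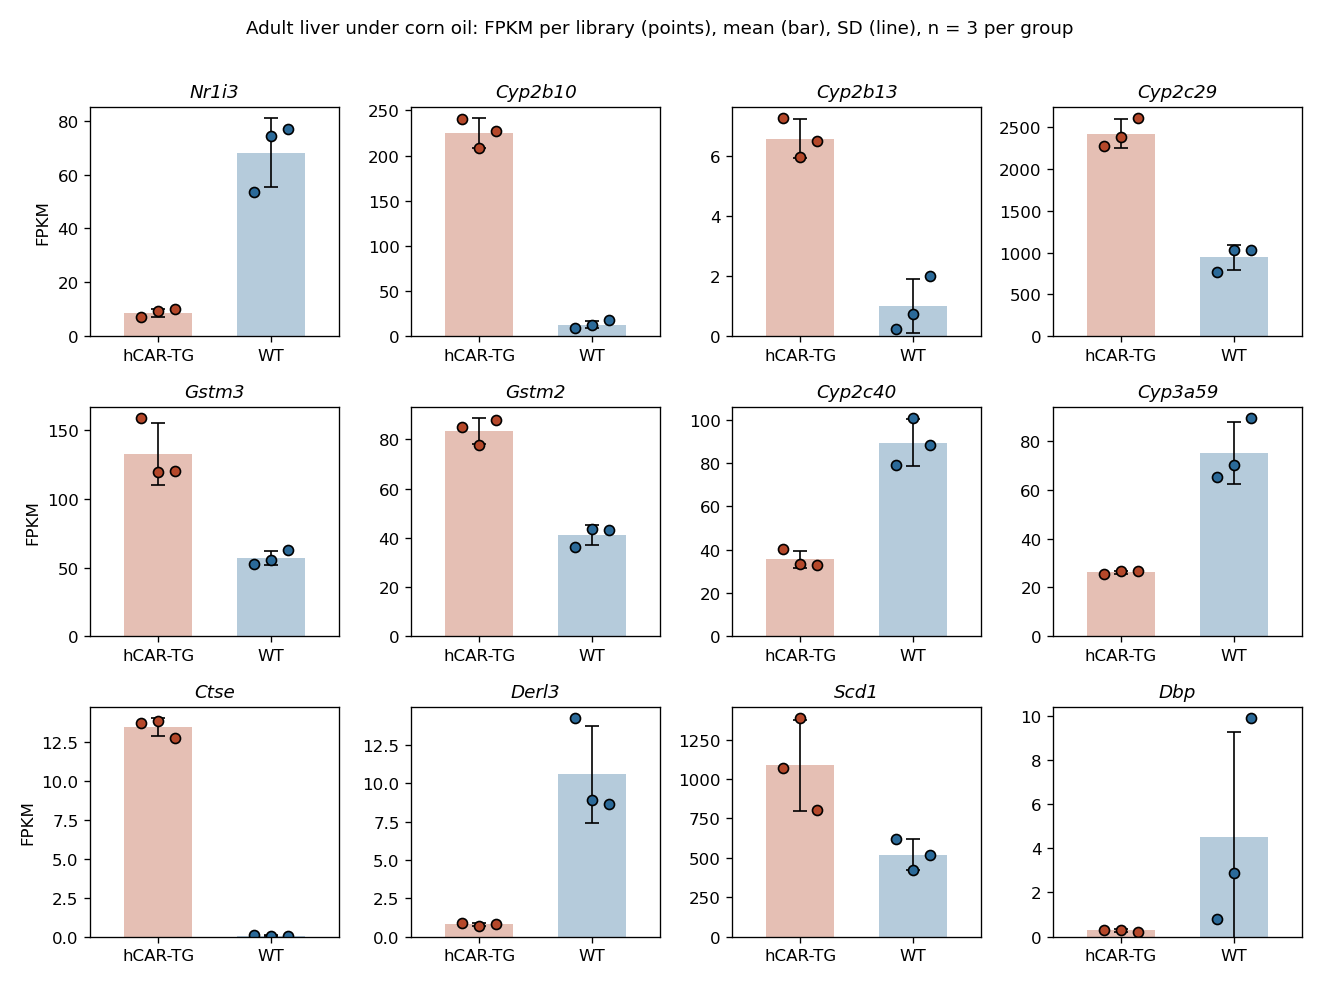
FPKM of 12 genes in each adult corn oil library, with hCAR-TG left of WT in every panel; points are libraries, bars are means and lines the SD (n = 3 per group, cut off at 0 for Dbp). In every panel the 2 groups are separate, while the WT values of Dbp spread from 0.814 to 9.90 FPKM.

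The largest called rise was in the classical CAR target. Cyp2b10 had 241, 208 and 227 FPKM in hCAR-TG livers, against 9.31, 11.9 and 17.4 FPKM in WT livers. The lowest hCAR-TG library was many times above the highest WT library, and the ratio of the means was 17.5 (log2 change 4.07 ± 0.26, limma adjusted p = 5.36e-09). For scale, adult livers given an agonist had 1223, 1197 and 1259 FPKM in hCAR-TG after CITCO and 2760.0, 2625 and 2404 FPKM in WT after TCPOBOP, so the hCAR-TG vehicle level lay between the WT vehicle level and both agonist levels. Cyp2b13, a neighbour of Cyp2b10 in the Cyp2b cluster of chromosome 7 that is known as a female-biased gene, had 7.27, 5.97 and 6.50 FPKM in hCAR-TG and 0.256, 0.744 and 2.01 FPKM in WT (log2 change 2.01 ± 0.19, limma adjusted p = 1.15e-06). The third member, Cyp2b9, another female-biased gene, was not called: it had 1.19, 1.25 and 1.36 FPKM in hCAR-TG and 0.580, 9.37 and 22.1 FPKM in WT, where replicate 1 was far below the other 2 (log2 change -1.67 ± 0.58, limma adjusted p = 0.119). Without that WT library the Cyp2b9 difference was -2.77 with an adjusted p of 4.32e-07. Leaving out WT replicate 2 gave -1.42 (limma adjusted p = 0.361) and leaving out WT replicate 3 gave -0.84 (limma adjusted p = 0.443). With the suffix as a term Cyp2b9 was not called either (limma adjusted p = 0.63). The 3 genes are close relatives, and reads shared among them leave single values uncertain.

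The promoters of the 3 Cyp2b genes are shown because these related neighbours lay at different levels in the same livers. Each window runs from 250 bases before to 50 bases after the gene's start, in RefSeq's GRCm38.p6 build (the assembly of mm10), and capitals mark the hexamer AGGTCA, the core that nuclear receptors bind, searched on both strands. The windows of Cyp2b13 (chr7:26061245-26061544, plus strand) and Cyp2b9 (chr7:26173159-26173458, plus strand) were identical at 298 of 300 bases (99.3%) and both hold the hexamer 138 to 133 bases before the start. That of Cyp2b10 (chr7:25897408-25897707, plus strand) matched each of them at 223 of 311 alignment columns, gaps included (71.7%), and has no such hexamer. The known CAR-responsive enhancer of Cyp2b10 lies upstream of this window. Of the 9358 tested genes with a promoter in the table, 15.8% hold AGGTCA, as do 17 of the 46 CAR targets with one (37%) and 2 of the 6 CAR targets called higher, Cyp2b13 and Ugt2b35.
Cyp2b10: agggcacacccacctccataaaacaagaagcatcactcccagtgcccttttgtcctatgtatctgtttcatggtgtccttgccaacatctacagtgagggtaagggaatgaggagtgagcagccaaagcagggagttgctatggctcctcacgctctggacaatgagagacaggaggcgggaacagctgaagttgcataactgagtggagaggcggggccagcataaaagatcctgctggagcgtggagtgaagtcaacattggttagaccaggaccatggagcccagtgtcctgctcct
Cyp2b13: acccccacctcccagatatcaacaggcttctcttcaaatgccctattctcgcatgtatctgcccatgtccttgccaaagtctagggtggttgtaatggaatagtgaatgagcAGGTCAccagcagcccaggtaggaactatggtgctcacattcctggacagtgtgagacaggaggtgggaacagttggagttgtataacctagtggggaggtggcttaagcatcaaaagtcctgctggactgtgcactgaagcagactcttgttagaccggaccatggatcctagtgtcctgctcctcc
Cyp2b9: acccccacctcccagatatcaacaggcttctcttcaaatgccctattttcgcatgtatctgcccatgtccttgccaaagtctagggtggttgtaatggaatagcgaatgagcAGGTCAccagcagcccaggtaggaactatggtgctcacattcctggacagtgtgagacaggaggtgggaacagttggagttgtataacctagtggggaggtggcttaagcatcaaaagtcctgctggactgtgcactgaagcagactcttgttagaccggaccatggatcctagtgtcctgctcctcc

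Over 50 known CAR targets of adult liver, 6 were higher and 3 lower in hCAR-TG, that is 18% called, against 4.9% of all tested genes, and the median log2 change was 0.13. The list had 6 higher and 6 lower without WT replicate 1, 9 and 1 without WT replicate 3, and 10 and 2 in the fit of the adult libraries alone. Beside Cyp2b10 and Cyp2b13 the higher ones were 2 Gstm genes, Cyp2c55 and Ugt2b35. Cyp2c55, a P450 of the Cyp2c family, had 12.1, 10.6 and 15.1 FPKM in hCAR-TG and 5.69, 7.53 and 5.45 FPKM in WT, with no overlap (log2 change 0.91 ± 0.16, limma adjusted p = 0.00141). Ugt2b35, which attaches glucuronic acid to lipophilic compounds, rose by 0.44 ± 0.09 on the log2 scale (adjusted p = 0.00599). Cyp2c29, one of the most abundant P450 transcripts that CAR raises in mouse liver, had 2276, 2379 and 2614 FPKM in hCAR-TG, against 771, 1031 and 1035 FPKM in WT. Its groups were far apart, yet the test missed the threshold (log2 change 1.37 ± 0.39, limma adjusted p = 0.0507). In a fit of the 12 adult libraries alone its adjusted p was 2.76e-05. Cyp2c29 was not called with any replicate left out (limma adjusted p 0.0958 to 0.131) or with the suffix as a term (0.45).

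Other established targets had no called difference. Cyp3a11, the main drug-oxidizing P450 of the Cyp3a family, had 2742, 2624 and 2855 FPKM in hCAR-TG and 3161, 3307 and 3634 FPKM in WT (log2 change -0.30 ± 0.11, adjusted p = 0.156), with all hCAR-TG values below all WT values. Por, the electron donor of P450 enzymes, had 60.02, 59.97 and 60.1 FPKM in hCAR-TG and 45.4, 63.8 and 71.5 FPKM in WT, and the carboxylesterase gene Ces2a had 209, 229 and 208 FPKM in hCAR-TG and 245, 241 and 253 FPKM in WT (adjusted p = 0.983 for Por and 0.475 for Ces2a). Alas1, the rate-limiting enzyme of heme synthesis, depended on a single library: it had 118, 20.8 and 17.8 FPKM in hCAR-TG and 41.6, 27.4 and 28.2 FPKM in WT. Replicate 1 of hCAR-TG, the library with fat cell transcripts, held the highest value of the 6 and the other 2 held the lowest. With that library the Alas1 log2 change was 0.16 (adjusted p = 0.941), and without it -0.70 (adjusted p = 0.034).

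The 3 CAR targets that were lower in hCAR-TG are an organic anion uptake carrier and 2 P450 enzymes. Slco1a4 had 6.51, 8.50 and 7.44 FPKM in hCAR-TG and 12.4, 15.2 and 17.02 FPKM in WT (log2 change -0.90 ± 0.20, limma adjusted p = 0.0115), and its call was lost without hCAR-TG replicate 1 or WT replicate 3 (adjusted p 0.0595 to 0.0712). Cyp3a25 had 218, 259.8 and 267 FPKM in hCAR-TG and 401, 411 and 434 FPKM in WT, with no overlap (log2 change -0.75 ± 0.09, limma adjusted p = 1.66e-05). Cyp2c38 had 6.11, 6.36 and 5.08 FPKM in hCAR-TG, against 6.29, 15.3 and 21.4 FPKM in WT, and WT replicate 1 lay among the hCAR-TG values (log2 change -1.02 ± 0.24, limma adjusted p = 0.0141). This call was lost without hCAR-TG replicate 3 or WT replicate 2 or 3 (adjusted p 0.0577 to 0.0828). With the suffix as a term, 4 members of the list were higher and 2 lower, the higher ones being Cyp2b10, Cyp2b13, Gstm2 and Gstm3.

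Of the mu class glutathione S-transferases, which conjugate reactive products of P450 oxidation to glutathione, 6 were higher in hCAR-TG. Of 22 tested glutathione S-transferase genes, 6 were higher and 0 lower (median log2 change 0.23), 27.3% called, against 4.9% of all tested genes. The 6 are Gstm2, Gstm3, Gstm4, Gstm5, Gstm6 and Gstm7 of the Gstm cluster on chromosome 3. Gstm3 had 159, 119 and 120.1 FPKM in hCAR-TG and 52.6, 55.9 and 62.9 FPKM in WT (log2 change 1.19 ± 0.14, limma adjusted p = 1.39e-05). Gstm2 had 84.9, 77.8 and 87.9 FPKM in hCAR-TG and 36.4, 43.8 and 43.04 FPKM in WT (log2 change 1.01 ± 0.13, limma adjusted p = 2.97e-05). In both genes all hCAR-TG values were above all WT values. Gstm7, Gstm6 and Gstm4 rose by 0.56, 0.56 and 0.44 on the log2 scale, while the most abundant one, Gstm1, was not called. Gstm5 rose by 0.31, a call lost without hCAR-TG replicate 1 or 3 or WT replicate 2 or 3 (adjusted p 0.0552 to 0.198). Near-identical Gstm copies leave single members uncertain. With the suffix as a term the list had 2 higher, Gstm2 and Gstm3, and 0 lower. Of all tested genes 4.9% were called, and of 26 uptake transporters 26.9%, 3 higher and 4 lower. Their counts were 2 and 2 without hCAR-TG replicate 1, 1 and 3 without WT replicate 2, 1 and 2 without WT replicate 3, and 0 and 2 with the suffix as a term.

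P450 genes as a whole moved both ways, with 20.3% of 59 tested called, against 4.9% of all tested genes. In the list 4 were higher and 8 lower (median log2 change -0.16). Most of the lower ones form a group on chromosome 19 of Cyp2c genes. Cyp2c40 had 40.2, 33.2 and 33.1 FPKM in hCAR-TG and 79.1, 101 and 88.3 FPKM in WT (log2 change -1.31 ± 0.10, limma adjusted p = 5.15e-08). Cyp2c69, its close relative and known as female-biased, had 19.2, 18.5 and 18.1 FPKM in hCAR-TG and 43.7, 61.1 and 48.3 FPKM in WT (log2 change -1.40 ± 0.13, limma adjusted p = 1.01e-06). Groups did not overlap in either gene, nor in Cyp2c68 (log2 change -0.92 ± 0.09) or Cyp2c67 (-0.67 ± 0.12). The same cluster thus held members that were higher in hCAR-TG (Cyp2c55) and members that were lower. In the Cyp3a family, Cyp3a59 had 25.6, 26.5 and 26.5 FPKM in hCAR-TG, against 65.2, 70.3 and 89.3 FPKM in WT, with little spread among the hCAR-TG libraries (log2 change -1.47 ± 0.09, limma adjusted p = 1.23e-09). Cyp4a12b, a male-biased fatty acid hydroxylase, was higher by 0.68 ± 0.19, and this call was lost without any hCAR-TG replicate or WT replicate 2 or 3 (adjusted p 0.0638 to 0.138). With the suffix as a term 2 P450 genes were higher and 6 lower, among them Cyp2c40, Cyp2c67, Cyp2c68 and Cyp2c69. Without WT replicate 1 the list had 5 higher and 17 lower.

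**Figure D2:**
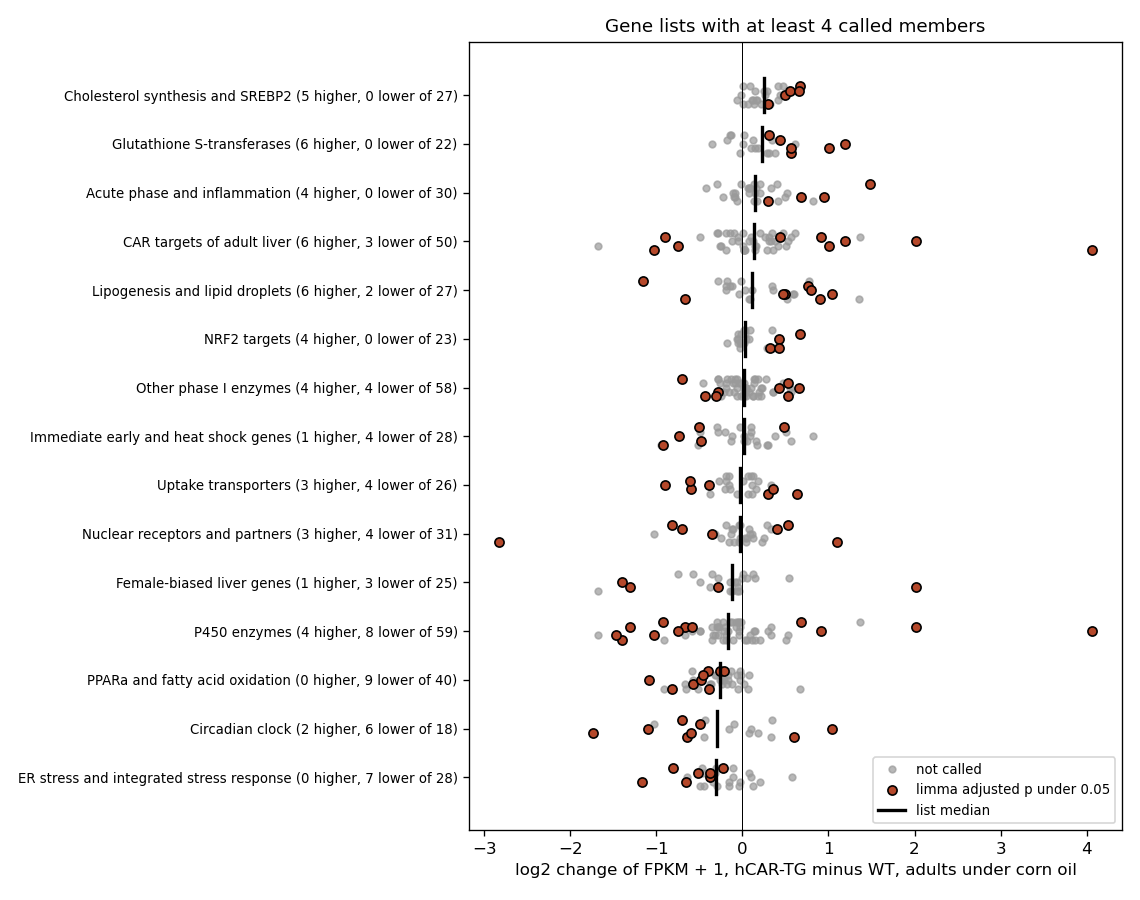
Log2 change of FPKM + 1, hCAR-TG minus WT in adults under corn oil, for each tested gene of the 15 lists with at least 4 called members; rows are lists ordered by their median (vertical bar), rust points are genes at limma adjusted p under 0.05 and grey points the others. Called genes of the fatty acid oxidation and ER stress lists lie to the left of 0 and called glutathione S-transferases and cholesterol synthesis genes to the right.

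In the list of PPARalpha, its targets and fatty acid oxidation, 0 of 40 were higher and 9 lower, with a median log2 change of -0.26. The share called was 22.5%, against 4.9% of all tested genes. Ppara itself is one of the 9. Cpt1a, which admits long-chain fatty acids to mitochondria, had 41.4, 52.9 and 52.5 FPKM in hCAR-TG and 60.7, 81.5 and 77.6 FPKM in WT (log2 change -0.57 ± 0.11, limma adjusted p = 0.0021). Angptl4, a fasting-induced inhibitor of lipoprotein lipase, had 19.7, 37.4 and 22.2 FPKM in hCAR-TG and 40.8, 65.99 and 61.3 FPKM in WT (log2 change -1.08 ± 0.22, limma adjusted p = 0.00548). In neither gene did the groups overlap. Without hCAR-TG replicate 1 the list had 1 higher and 5 lower, without WT replicate 2 it had 0 and 5, and without WT replicate 1 it had 1 and 18. With the suffix as a term none was called, and the list median was -0.29.

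Among 27 tested genes of fat synthesis and lipid droplets, 6 were higher and 2 lower (median log2 change 0.12). Called were 29.6% of them, against 4.9% of all tested genes. Replicate 1 of hCAR-TG, the library with fat cell transcripts, held 70.9 FPKM of adipose markers, against 12.4 and 13.5 FPKM in the other hCAR-TG livers and 8.64 to 9.13 FPKM in WT, and their part in these values was not tested. Scd1, which makes monounsaturated fatty acids, had 1067, 1385 and 804 FPKM in hCAR-TG and 622, 423 and 516 FPKM in WT (log2 change 1.04 ± 0.21, limma adjusted p = 0.00524). Acly, the source of acetyl-CoA for fat and cholesterol synthesis, had 96.5, 67.3 and 51.8 FPKM in hCAR-TG and 40.2, 30.1 and 41.1 FPKM in WT, and replicate 1 was the highest (log2 change 0.90 ± 0.15, limma adjusted p = 0.00101). Elovl5, an elongase of polyunsaturated fatty acids, rose by 0.79 ± 0.13, and Acacb, whose product malonyl-CoA inhibits fatty acid import, by 0.77 ± 0.15. Neither Scd1, Acly, Elovl5 nor Acacb had overlapping groups. The other higher ones were Gpam (0.50), which starts triglyceride synthesis, and Pnpla3 (0.47), a lipid droplet protein. The Gpam call was lost without hCAR-TG replicate 1 or 2 or WT replicate 1 or 2 (adjusted p 0.0595 to 0.171), and the Pnpla3 call without hCAR-TG replicate 1 or WT replicate 2 or 3 (adjusted p 0.0933 to 0.231). Of the 2 lower genes, G0s2, an inhibitor of lipolysis, had 16.3, 16.1 and 28.3 FPKM in hCAR-TG and 53.5, 42.9 and 39.4 FPKM in WT (log2 change -1.16 ± 0.30, limma adjusted p = 0.0294), and Lpin2, a phosphatidate phosphatase, fell (log2 change -0.67). Both calls were lost when libraries were left out, that of G0s2 without hCAR-TG replicate 1 or 2 or any WT replicate (adjusted p 0.0514 to 0.144) and that of Lpin2 without hCAR-TG replicate 1 or 3 or WT replicate 2 or 3 (adjusted p 0.0652 to 0.16). The list had 4 higher and 0 lower without hCAR-TG replicate 1 or WT replicate 2 and 5 and 0 without WT replicate 3. No gene of the list was called with the suffix as a term, where the list median was 0.21.

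In cholesterol synthesis 5 of 27 genes were higher (18.5%, against 4.9% of all tested genes called) and 0 lower (median log2 change 0.25). Pmvk, a kinase of the mevalonate pathway, had 43.2, 37.1 and 34.6 FPKM in hCAR-TG and 23.8, 18.2 and 30.2 FPKM in WT (log2 change 0.67 ± 0.14, limma adjusted p = 0.00522). Insig2, a membrane protein that retains the sterol sensor in the endoplasmic reticulum, had 169, 137 and 170.0 FPKM in hCAR-TG and 106, 107 and 87.3 FPKM in WT (log2 change 0.66 ± 0.12, limma adjusted p = 0.00236). Dhcr7, which completes cholesterol synthesis, rose by 0.56 ± 0.15, and this call was lost without hCAR-TG replicate 1 or 2 or WT replicate 1 or 2 (adjusted p 0.0617 to 0.224). Without hCAR-TG replicate 1 or without WT replicate 2 the list had 2 calls, both higher. It had 3 without WT replicate 1 or hCAR-TG replicate 2, and 0 with the suffix as a term, where the list median was 0.36. Among NRF2 targets 4 of 23 were higher (17.4%, against 4.9% of all tested genes called) and 0 lower. Most of the 4 were genes of the pentose phosphate pathway, which NRF2 also drives. They were Pgd (0.67 ± 0.10), Tkt (0.42 ± 0.08) and G6pdx (0.43 ± 0.11), and the other was the antioxidant gene Srxn1 (0.32). The G6pdx call was lost without hCAR-TG replicate 1 or WT replicate 2 or 3 (adjusted p 0.0771 to 0.202), and that of Srxn1 without hCAR-TG replicate 1 or 2 or any WT replicate (adjusted p 0.0527 to 0.166). The NRF2 list had 2 calls without hCAR-TG replicate 1, WT replicate 2 or WT replicate 3. With the suffix as a term it had 2 higher and 0 lower. Bhmt, the betaine-dependent enzyme that remakes methionine, had 1861, 1714 and 1762 FPKM in hCAR-TG and 1066, 818 and 943 FPKM in WT, with no overlap (log2 change 0.92 ± 0.16, limma adjusted p = 0.000899). It was 1 of 3 higher among 25 genes of the methionine cycle and one-carbon metabolism (12%, against 4.9% of all tested genes called). This list had 0 calls when the suffix was a term.

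Several chaperones of the endoplasmic reticulum (ER) were lower in hCAR-TG. Of 28 genes of the unfolded protein and integrated stress responses, 0 were higher and 7 lower, with a median log2 change of -0.31. Calls made up 25% of the list, against 4.9% of all tested genes. Creld2, an ER stress-induced disulfide isomerase, had 48.7, 31.99 and 33.6 FPKM in hCAR-TG and 128, 66.8 and 73.3 FPKM in WT, where replicate 1 was the highest (log2 change -1.17 ± 0.18, limma adjusted p = 0.000344). Herpud1, which takes part in the disposal of misfolded proteins, had 93.1, 136 and 88.6 FPKM in hCAR-TG and 206, 176 and 169 FPKM in WT (log2 change -0.81 ± 0.16, limma adjusted p = 0.00419). Pdia4, a disulfide isomerase, fell (log2 change -0.51 ± 0.10). Groups did not overlap in these 3. Hsp90b1, the ER form of HSP90, was at 339, 302 and 275 FPKM in hCAR-TG and 533, 461 and 452 FPKM in WT (log2 change -0.66 ± 0.17, limma adjusted p = 0.0308), a call lost without hCAR-TG replicate 2 or 3 or any WT replicate (adjusted p 0.0562 to 0.109). Its partner Hspa5, the main ER chaperone, had 429, 352 and 340.0 FPKM in hCAR-TG and 747, 439.7 and 392 FPKM in WT, and was not called (log2 change -0.44 ± 0.17, limma adjusted p = 0.176). Derl3, a channel protein of ER-associated degradation that is not in the list, was among the largest falls of all: 0.900, 0.670 and 0.806 FPKM in hCAR-TG, against 14.3, 8.90 and 8.65 FPKM in WT (log2 change -2.66 ± 0.14, limma adjusted p = 6.77e-11). Its lowest WT value was far above its highest hCAR-TG value. Without WT replicate 1 the list had 3 lower genes and 1 higher. Counts of lower genes were 3 without hCAR-TG replicate 2 and 4 without hCAR-TG replicate 3. They were 11 after rescaling by median of ratios and 0 with the suffix as a term, where the list median was -0.29. Derl3 was still called under that term.

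Of the ER genes that were lower, 4 hold the ER stress response element near their start, and these promoters are shown for that reason. The element is CCAAT and CCACG with 9 bases of any kind between them, the site through which ATF6 acts with the factor NF-Y. Capitals mark each match on either strand; a match on the opposite strand reads CGTGG first and ATTGG last. Of the 9358 tested genes with a RefSeq promoter, 20 have a match (0.214%). The ER list holds 8 of those 20 among its 26 members with a promoter (30.8%), and 3 of its 7 lower members match, Hsp90b1, Pdia6 and Creld2. With Derl3, which is outside the list and was added because of its fall in these data, the count is 4 of 8. Pdia6, a disulfide isomerase, was lower (log2 change -0.22 ± 0.06, adjusted p = 0.0299), a call lost without hCAR-TG replicate 2 or 3 or WT replicate 1 or 2 (adjusted p 0.091 to 0.109). The matching genes Hspa5, Calr, Canx, Dnajc3 and Syvn1 were not called. Among all genes called lower 5 of 171 match (2.92%), the 4 shown included, and among those called higher 1 of 290 (0.345%). The gene of the factor, Atf6, lies near Nr1i3 and was also lower: it had 8.99, 9.11 and 9.53 FPKM in hCAR-TG and 13.4, 12.4 and 12.2 FPKM in WT, with no overlap (log2 change -0.42 ± 0.06, limma adjusted p = 0.000255). The Atf6 call was lost with the suffix as a term (adjusted p = 0.226), and its part in the chaperone values was not tested. The windows are those of Derl3 (chr10:75893148-75893447, plus strand), Creld2 (chr15:88819396-88819695, plus strand), Hsp90b1 (chr10:86705395-86705694, minus strand) and Pdia6 (chr12:17266339-17266638, plus strand), in the same build.
Derl3: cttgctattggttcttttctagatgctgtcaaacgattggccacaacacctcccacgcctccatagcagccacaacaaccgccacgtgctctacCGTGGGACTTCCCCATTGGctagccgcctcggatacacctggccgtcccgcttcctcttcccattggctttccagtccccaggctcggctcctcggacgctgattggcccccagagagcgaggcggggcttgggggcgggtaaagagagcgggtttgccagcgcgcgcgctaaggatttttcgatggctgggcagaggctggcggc
Creld2: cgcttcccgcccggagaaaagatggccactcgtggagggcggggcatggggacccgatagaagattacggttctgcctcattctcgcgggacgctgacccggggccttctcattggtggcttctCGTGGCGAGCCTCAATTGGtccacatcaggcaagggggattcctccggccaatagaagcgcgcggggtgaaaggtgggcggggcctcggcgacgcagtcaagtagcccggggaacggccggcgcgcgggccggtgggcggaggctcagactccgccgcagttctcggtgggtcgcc
Hsp90b1: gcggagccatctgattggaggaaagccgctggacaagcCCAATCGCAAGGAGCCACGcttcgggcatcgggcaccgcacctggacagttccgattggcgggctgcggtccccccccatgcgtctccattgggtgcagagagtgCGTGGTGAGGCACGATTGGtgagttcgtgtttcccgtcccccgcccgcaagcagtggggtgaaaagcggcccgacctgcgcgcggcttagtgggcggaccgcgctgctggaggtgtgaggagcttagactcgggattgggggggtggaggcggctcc
Pdia6: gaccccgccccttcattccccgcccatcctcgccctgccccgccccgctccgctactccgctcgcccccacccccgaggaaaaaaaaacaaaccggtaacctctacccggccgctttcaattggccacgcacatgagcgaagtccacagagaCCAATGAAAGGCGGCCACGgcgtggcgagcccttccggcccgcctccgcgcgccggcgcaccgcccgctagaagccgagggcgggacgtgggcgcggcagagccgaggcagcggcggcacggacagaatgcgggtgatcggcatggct

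Heat shock genes of the cytosol were also among the falls. In the list of immediate early and heat shock genes 1 of 28 was higher and 4 were lower (median 0.02). Its share of calls was 17.9%, against 4.9% of all tested genes. Hspa1b, an inducible HSP70, had 1.90, 2.28 and 1.55 FPKM in hCAR-TG and 5.38, 5.16 and 3.19 FPKM in WT (log2 change -0.92 ± 0.17, limma adjusted p = 0.00199). Hsph1 and Hspa8, an HSP110 and the constitutive HSP70, fell with log2 changes of -0.73 and -0.48. Groups did not overlap in any of the 3. The Hsph1 call was lost without hCAR-TG replicate 2 or 3 or WT replicate 1 (adjusted p 0.0598 to 0.074) and the Hspa8 call without hCAR-TG replicate 1 or 3 or WT replicate 1 or 2 (adjusted p 0.0502 to 0.09). The list had 0 higher and 3 lower without hCAR-TG replicate 1, 1 and 2 without WT replicate 1, 0 and 2 without WT replicate 2, and none called with the suffix as a term.

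Clock genes had the highest share of calls among the pathway lists, 44.4%, against 4.9% of all tested genes. Of 18 tested, 2 were higher and 6 lower (median log2 change -0.30). The higher ones were Npas2 and Arntl, whose products can pair as an activating dimer of the clock. The lower ones include Dbp, Tef and Hlf, PAR bZIP factors that the activating dimers of the clock switch on. Npas2 had 3.84, 2.67 and 3.46 FPKM in hCAR-TG and 1.59, 1.27 and 0.545 FPKM in WT (log2 change 1.04 ± 0.15, limma adjusted p = 0.000121). Arntl had 9.64, 10.9 and 10.5 FPKM in hCAR-TG, against 9.02, 6.68 and 4.45 FPKM in WT, where it was lowest in replicate 3 (log2 change 0.60 ± 0.16, limma adjusted p = 0.0321). Dbp had 0.304, 0.313 and 0.216 FPKM in hCAR-TG and 0.814, 2.87 and 9.90 FPKM in WT (log2 change -1.73 ± 0.43, limma adjusted p = 0.0228). The WT library with the most Dbp had the least Arntl and the one with the least Dbp the most Arntl, so these clock genes varied within the WT group. Tef had 6.47, 9.45 and 7.06 FPKM in hCAR-TG and 11.8, 17.3 and 25.5 FPKM in WT (log2 change -1.10 ± 0.20, limma adjusted p = 0.00209).

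Nr1d2 (-0.70), the repressor REV-ERB beta, Per3 (-0.64), a period gene, Hlf (-0.50) and the deubiquitinase gene Usp2 (-0.60) completed the lower set of clock genes. Calls were lost for Dbp without any hCAR-TG replicate or WT replicate 2 or 3 (adjusted p 0.0548 to 0.0771), for Arntl without any hCAR-TG replicate or WT replicate 2 or 3 (adjusted p 0.0708 to 0.181) and for Nr1d2 without hCAR-TG replicate 1 or 3 or WT replicate 2 or 3 (adjusted p 0.0638 to 0.172). They were also lost for Per3 without hCAR-TG replicate 1 or 3 or WT replicate 3 (adjusted p 0.0824 to 0.155) and for Hlf without hCAR-TG replicate 1 or WT replicate 2 (adjusted p 0.0561 to 0.0811). Without hCAR-TG replicate 1, WT replicate 2 or WT replicate 3 the clock list had 1 higher and 3 lower, and without WT replicate 1 it had 4 and 8. No clock gene was called with the suffix as a term, where the list median was -0.10. The labels give no hour of collection, and its part in these values was not tested.

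Markers of other cell types were read for the composition of the samples, in which fewer cells of a type and less RNA per cell cannot be told apart. Of 11 tested neutrophil markers 4 were higher in hCAR-TG (36.4%, against 4.9% of all tested genes called) and 0 lower (median log2 change 0.25). The 11 summed to 41.5 to 74.7 FPKM in hCAR-TG and 13.1 to 28.5 FPKM in WT, and Lcn2 was the largest part of the sum in all 6 libraries. S100a8, a calprotectin subunit, had 10.03, 8.64 and 10.5 FPKM in hCAR-TG and 2.15, 3.34 and 3.51 FPKM in WT (log2 change 1.44 ± 0.31, limma adjusted p = 0.00795). Its partner S100a9 had 9.88, 7.91 and 11.03 FPKM in hCAR-TG and 3.05, 2.43 and 3.51 FPKM in WT, and neither gene had overlapping groups. Lcn2, an iron-binding protein of neutrophils that hepatocytes also make in the acute phase, had 52.3, 22.4 and 31.8 FPKM in hCAR-TG and 6.65, 10.7 and 20.02 FPKM in WT (log2 change 1.48 ± 0.37, limma adjusted p = 0.0251), a call lost without hCAR-TG replicate 1 or 3 or WT replicate 1 or 2 (adjusted p 0.0544 to 0.153). Csf3r, the receptor that drives neutrophil production, rose by 0.38 ± 0.09, a call lost without hCAR-TG replicate 3 or WT replicate 3 (adjusted p 0.0509 to 0.0603). The granule protein genes that define the lineage were near 0 in both genotypes: the highest value of Ngp was 0.113 FPKM in hCAR-TG and 0.0265 FPKM in WT, that of Mpo 0.0117 and 0.0101, and that of Elane 0.122 and 0.163. The list had 3 higher without hCAR-TG replicate 1, 2 without hCAR-TG replicate 3 and 0 with the suffix as a term.

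Sinusoidal endothelial markers were lower in 3 of 16 (18.8%, against 4.9% of all tested genes called). The list median was -0.13, and the sums were 168 to 184 FPKM in hCAR-TG and 189 to 216 FPKM in WT. The 3 were Lyve1, a hyaluronan receptor, Gpr182, an endothelial chemokine scavenger, and Fcgr2b, an Fc receptor that lies close to Nr1i3. Lyve1 had 2.01, 1.67 and 1.40 FPKM in hCAR-TG and 2.91, 3.12 and 2.82 FPKM in WT (log2 change -0.56 ± 0.14, limma adjusted p = 0.0225), and Gpr182 fell (log2 change -0.38). The Lyve1 call was lost without hCAR-TG replicate 2 or 3 or WT replicate 2 (adjusted p 0.0597 to 0.0982) and that of Gpr182 without hCAR-TG replicate 2 or WT replicate 2 (adjusted p 0.065 to 0.0946). The list had 1 call without WT replicate 2 or hCAR-TG replicate 2, 5 without WT replicate 1, all lower, and 0 with the suffix as a term. Of the 8 adipose markers summed above, 2 passed the filter, and Fabp4, a fatty acid-binding protein, was at 31.1, 12.2 and 12.8 FPKM in hCAR-TG and 9.07, 8.64 and 8.78 FPKM in WT, a call (log2 change 0.88 ± 0.25, limma adjusted p = 0.0491) that was lost without hCAR-TG replicate 1 or any WT replicate (adjusted p 0.0808 to 0.247). Stellate cell markers summed to 169 to 245 FPKM in hCAR-TG and 163 to 183 FPKM in WT, with 1 of 15 called. Kupffer cell markers summed to 314 to 400.4 FPKM in hCAR-TG and 404 to 442 FPKM in WT, with 1 of 15 called, lower. For the stellate and the Kupffer list the share called was 6.67%, near the 4.9% of all tested genes. Limma called 0 of 8 cholangiocyte, 9 lymphocyte, 10 erythroid, 18 pancreas and 11 intestine markers tested. In these 6 libraries 9 to 15 of 19 listed pancreas genes and 8 to 10 of 15 intestine genes were at 0 FPKM. The filter used all 24 libraries, so such genes could pass through other groups. The lack of calls among pancreas and intestine markers therefore says little. At an unadjusted p under 0.05 there were 3 cholangiocyte, 1 erythroid and 2 intestine markers, and 0 of the others. Of all 12282 tested genes, 2067 reached that level. Cholangiocyte markers summed to 34.7 to 43.0 FPKM in hCAR-TG and 25.1 to 30.7 FPKM in WT (list median log2 change 0.32). Sums of pancreas markers were 14.6 to 20.2 and 10.3 to 12.4 FPKM, and those of intestine markers 66.7 to 81.0 and 86.8 to 101 FPKM. Sums of lymphocyte and erythroid markers overlapped. Of 46 cell cycle genes and 19 genes of major urinary proteins limma called 0, with 0 at an unadjusted p under 0.05. The part of these cell types in the other differences was not tested.

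Calls were frequent around the targeted gene itself. Within 5 Mb of Nr1i3, and leaving that gene out, 20 of 75 tested genes were called (26.7%), 6 higher and 14 lower, and within 1 Mb 18 of 36 (50%), against 4.9% of all tested genes. Without hCAR-TG replicate 1 these counts were 18 and 17, and with the suffix as a term 7 and 6. Tomm40l, a mitochondrial import protein whose entry (chr1:171217803-171222514) overlaps that of Nr1i3, had 7.78, 8.49 and 9.07 FPKM in hCAR-TG and 22.3, 28.4 and 31.9 FPKM in WT (log2 change -1.58 ± 0.16, limma adjusted p = 2.26e-06). Whether the counting used strand is not given in the sources used here, so reads of the 2 overlapping genes may not be kept apart. Fcer1g and Fcgr3, parts of Fc receptors of macrophages and neutrophils, and Fcgr2b fell with log2 changes of -0.60, -0.65 and -0.48, and the phosphatase gene Dusp12 with -0.55. Atf6, given with the chaperones, is also among the 14 lower neighbours and was lower in newborns (-0.21, adjusted p = 0.0393). Cfap126, a cilium gene, was at 0.159, 0.213 and 0.206 FPKM in hCAR-TG and 1.12, 1.02 and 0.875 FPKM in WT (log2 change -0.75 ± 0.11, limma adjusted p = 0.000122).

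Other neighbours were higher in hCAR-TG. Tstd1 (chr1:171419033-171420352), a sulfurtransferase, had 39.4, 41.4 and 38.6 FPKM in hCAR-TG and 16.4, 16.3 and 17.5 FPKM in WT (log2 change 1.20 ± 0.09, limma adjusted p = 1.58e-08). Pcp4l1 (chr1:171173264-171196268), a relative of the calmodulin regulator PCP4, had 10.5, 12.02 and 12.02 FPKM in hCAR-TG and 4.33, 4.52 and 4.62 FPKM in WT (log2 change 1.19 ± 0.17, limma adjusted p = 0.000233). Both had narrow groups with a wide gap between them. Nos1ap, an adaptor of neuronal nitric oxide synthase, the junction protein gene F11r and Apcs, which encodes serum amyloid P, rose by 0.89 ± 0.13, 0.49 ± 0.07 and 0.68 ± 0.11.

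**Figure D3:**
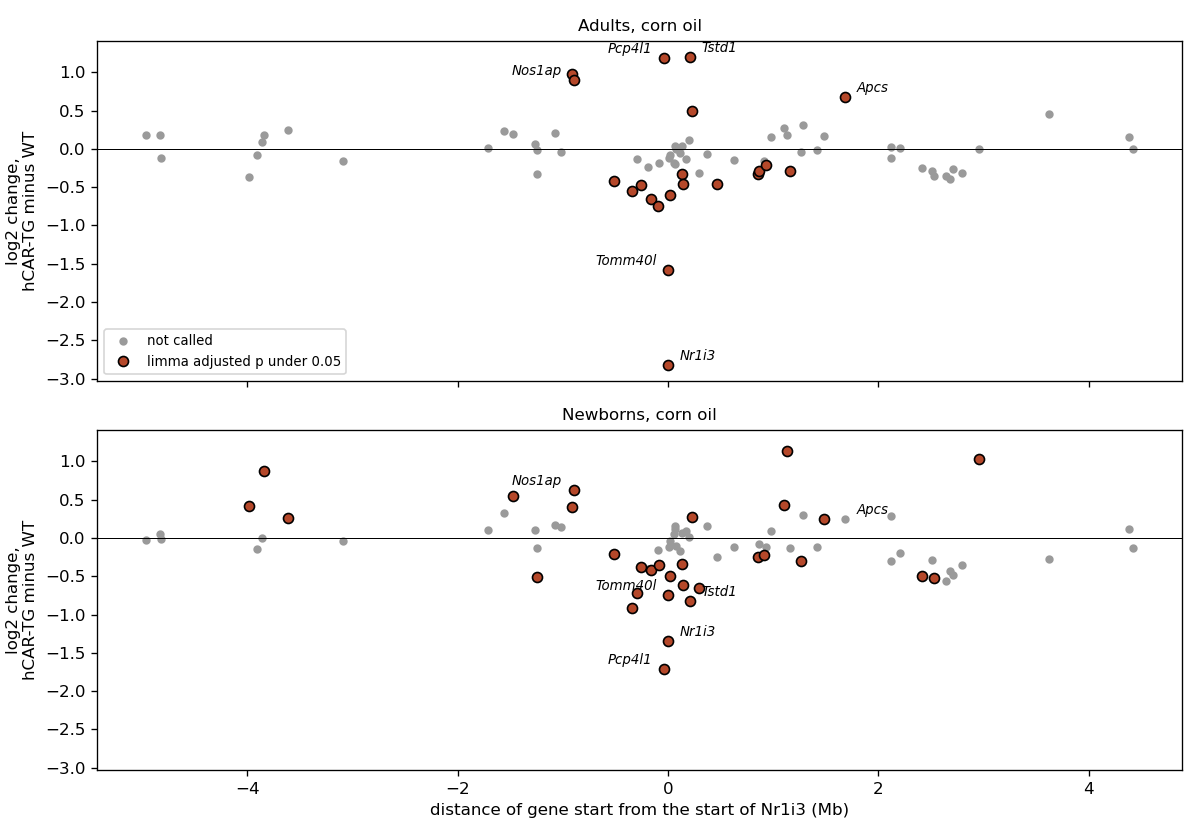
Log2 change of FPKM + 1, hCAR-TG minus WT under corn oil, of tested genes within 5 Mb of Nr1i3, by the distance of their start from that of Nr1i3 in Mb; adults above, newborns below, rust points at limma adjusted p under 0.05. Most called genes of both ages lie within 1 Mb, and Pcp4l1 and Tstd1 are above 0 in adults and below 0 in newborns.

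By chromosome, calls were most frequent on chromosome 14, with 54 of 427 tested genes (12.6%), and chromosome 1, with 62 of 699 (8.87%), while the other chromosomes with over 100 tested genes had 1.09% to 6.7%. In steps of 10 Mb with at least 20 tested genes, the highest shares were at 170 to 180 Mb of chromosome 1 (21 of 76, 27.6%), where Nr1i3 lies, and at 40 to 50 Mb (8 of 36, 22.2%) and 50 to 60 Mb (23 of 107, 21.5%) of chromosome 14. The stretch from 130 to 140 Mb of chromosome 1 followed with 15 of 79 (19%). These 2 chromosomes were singled out after their values were seen. Together they held 116 calls among 1126 genes (10.3%), and all other chromosomes 486 among 11156 (4.36%). Without hCAR-TG replicate 1 the shares were 7.28% and 2.28%, without WT replicate 2 they were 7.37% and 2.49%, and with the suffix as a term 2.84% and 0.69%.

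The stretch at 130 to 140 Mb of chromosome 1 holds the second largest called change after that of Cyp2b10. Ctse (chr1:131638314-131675507), the aspartic protease cathepsin E, had 13.7, 13.8 and 12.8 FPKM in hCAR-TG, against 0.0948, 0.0249 and 0.0612 FPKM in WT (log2 change 3.77 ± 0.16, limma adjusted p = 6.31e-12). Ren1 (chr1:133350674-133360319), the renin gene, had 1.06, 1.16 and 1.11 FPKM in hCAR-TG and was listed at 0 in all 3 WT livers (limma adjusted p = 7.85e-06). Pm20d1 (chr1:131797395-131818115), which joins fatty acids to amino acids, had 66.8, 70.2 and 65.8 FPKM in hCAR-TG and 31.9, 32.5 and 34.2 FPKM in WT (log2 change 1.02 ± 0.08, limma adjusted p = 2.79e-08). All 3 had groups that were narrow and apart. On chromosome 14, Lrtm1 (chr14:29018208-29033642), a membrane protein with leucine-rich repeats, had 5.30, 5.59 and 5.05 FPKM in hCAR-TG and 0.416, 0.618 and 0.673 FPKM in WT (log2 change 2.01 ± 0.19, limma adjusted p = 8.63e-07). Psmb5 (chr14:54614120-54617995), a catalytic subunit of the proteasome, had 45.4, 41.2 and 41.9 FPKM in hCAR-TG and 68.6, 71.6 and 68.7 FPKM in WT (log2 change -0.69 ± 0.07, limma adjusted p = 2.26e-06). Cebpe, a granulocyte transcription factor, was close to 0 in hCAR-TG (0.0258, 0.0215 and 0 FPKM) and had 2.41, 3.26 and 3.35 FPKM in WT (log2 change -1.97 ± 0.20, limma adjusted p = 4.18e-06). Ear2, an eosinophil ribonuclease with near-identical copies, fell (log2 change -1.95), a call lost without any hCAR-TG replicate or WT replicate 2 or 3 (adjusted p 0.0655 to 0.115), and the ferritin receptor gene Scara5 rose by 1.68 ± 0.20.

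**Figure D4:**
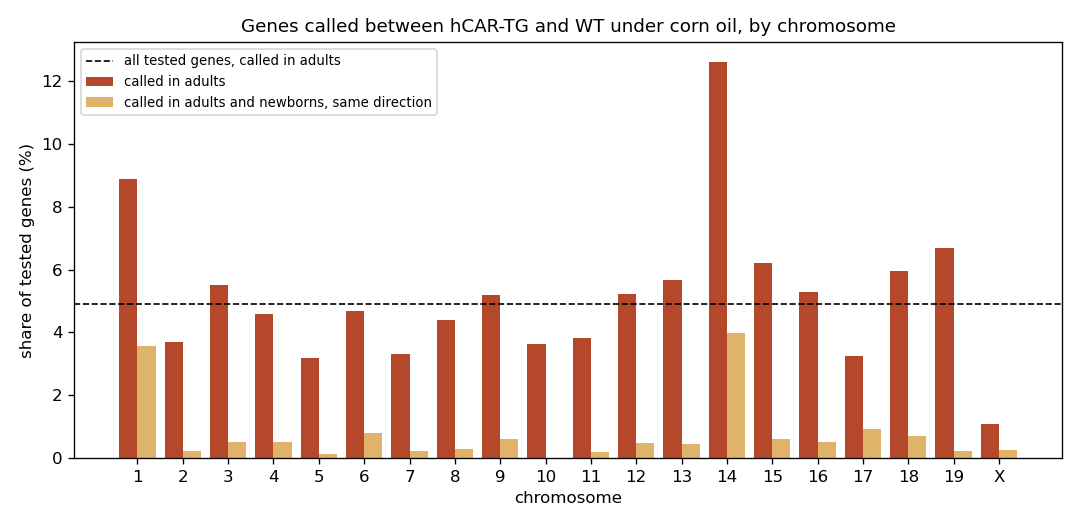
Share of tested genes called between hCAR-TG and WT under corn oil, in percent by chromosome; rust bars are calls in adults, yellow bars calls in adults and newborns in the same direction, and the dashed line is the 4.9% of all tested genes called in adults. Chromosomes 14 and 1 have the tallest bars of both kinds.

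Other large changes were in genes of varied kinds. Chrna4, a nicotinic receptor subunit, had 5.502, 2.43 and 2.22 FPKM in hCAR-TG, against 0.317, 0.176 and 0.512 FPKM in WT (log2 change 1.65 ± 0.17, limma adjusted p = 3.42e-06), and Psmc3ip, a meiotic recombination factor, had 2.84, 2.20 and 1.39 FPKM in hCAR-TG and 0.163, 0.304 and 0.0882 FPKM in WT (log2 change 1.38 ± 0.17, limma adjusted p = 2.97e-05). In both genes replicate 1 of hCAR-TG was the highest and the groups did not overlap. Cib3, a calcium-binding protein gene, rose by 1.42 ± 0.19 and the imprinted noncoding RNA gene Meg3 by 1.31 ± 0.29. The Meg3 call was lost without hCAR-TG replicate 1 or WT replicate 3 (adjusted p 0.0586 to 0.0712). Among the falls, Csad, the enzyme of taurine synthesis, had 15.01, 23.99 and 14.6 FPKM in hCAR-TG and 68.6, 44.2 and 34.7 FPKM in WT (log2 change -1.39 ± 0.21, limma adjusted p = 0.000283). Tcf24, a bHLH factor gene of chromosome 1, fell (log2 change -1.34). Arrdc3, an arrestin-domain protein, and Zbtb16, a zinc finger factor, fell with log2 changes of -1.50 and -1.33. The Arrdc3 call was lost without hCAR-TG replicate 1 or WT replicate 2 (adjusted p 0.0507 to 0.0614) and the Zbtb16 call without hCAR-TG replicate 1 or 2 or WT replicate 2 (adjusted p 0.0523 to 0.072).

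The same contrast in newborns, made from other libraries of both genotypes, shows which adult differences were present on day 5. In newborns 1297 genes were called (10.6% of those tested), 1018 higher and 279 lower in hCAR-TG, and after rescaling by median of ratios 1081, of which 63.8% were higher, against 78.5% without rescaling. Without WT replicate 1 or WT replicate 2 of day 5 there were 801. In these newborns markers of neutrophils (9 of 11), erythroid cells (8 of 10) and intestine (8 of 11) were also higher in hCAR-TG, and the suffixes of the 2 genotypes differed as well. Called at both ages in the same direction were 86 genes (0.7% of those tested), 14.3% of the adult calls and 6.63% of the newborn calls, and 27 genes were called in opposite directions. Of the 86, 42 lay on chromosomes 1 and 14 (48.8%). There 36.2% of adult calls were also called in newborns in the same direction, against 9.05% on the other chromosomes. Among all tested genes, newborn calls in either direction were 156 of 1126 on chromosomes 1 and 14 and 1141 of 11156 elsewhere. The 9.05% is thus near the share of any tested genes called in newborns.

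Nr1i3 had 18.7, 20.4 and 27.7 FPKM in hCAR-TG newborns and 68.6, 61.6 and 43.8 FPKM in WT newborns, lower in hCAR-TG by a smaller step than in adults (log2 change -1.34, age difference -1.49, adjusted p = 0.00108). Ctse repeated its pattern with 22.01, 23.7 and 25.1 FPKM in hCAR-TG newborns and 1.18, 2.37 and 3.02 FPKM in WT newborns (log2 change 2.99). So did Ren1, with 0.733, 1.29 and 0.894 FPKM in hCAR-TG newborns and 0.0186, 0.0652 and 0.0567 FPKM in WT newborns, and Pm20d1 (log2 change 1.19), Psmb5 (-0.53) and Lrtm1 (0.98). Tstd1 and Pcp4l1 turned round: Tstd1 had 82.1, 69.97 and 86.2 FPKM in hCAR-TG newborns and 147, 144 and 131 FPKM in WT newborns, and Pcp4l1 had 15.8, 11.8 and 17.4 FPKM in hCAR-TG newborns and 65.6, 57.7 and 34.7 FPKM in WT newborns. Both were thus lower in hCAR-TG at day 5 and higher at day 60, with no overlap at either age.

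Cyp2b10 was not called at day 5. It had 5.22, 1.22 and 1.98 FPKM in hCAR-TG newborns and 3.30, 5.57 and 3.92 FPKM in WT newborns, overlapping values (log2 change -0.58, adjusted p = 0.169), and the age difference was 4.65 (adjusted p = 2.01e-07). Cyp2c29 was lower in hCAR-TG newborns, with 6.19, 2.13 and 8.28 FPKM against 40.1, 39.1 and 10.4 FPKM in WT newborns (log2 change -2.16, adjusted p = 0.00118), so its genotype effect differed in sign between ages (age difference 3.53, adjusted p = 0.000592). Derl3 had 0.219, 0.281 and 0.414 FPKM in hCAR-TG newborns and 0.320, 0.3499 and 0.243 FPKM in WT newborns, overlapping values (adjusted p = 0.997), and its age difference was -2.66 (adjusted p = 3.48e-08). Cyp2c55 was higher by like amounts at both ages (0.88 in newborns, age difference 0.04), as was Psmc3ip (1.28, age difference 0.10). Slco1a4 was lower at both ages (-1.05 in newborns). Among the lists, fatty acid oxidation had 2 higher and 0 lower of 40 in newborns, and ER stress 3 and 0 of 28. Fat synthesis had 0 and 1 of 27, and the clock 0 and 1 of 18. These shares lie near or below the 10.6% of all tested genes called in newborns. In all, the genotype effect was unequal at the 2 ages for 852 genes (6.94%), 251 of them among the 602 adult calls.

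**Figure D5:**
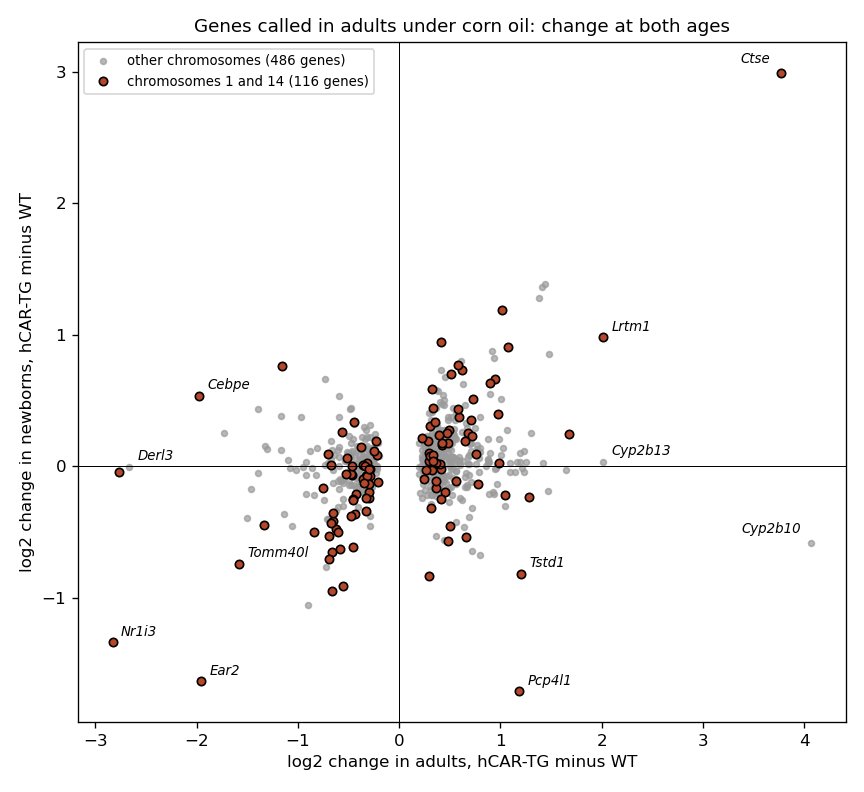
Log2 change of FPKM + 1, hCAR-TG minus WT under corn oil, in adults (horizontal) and newborns (vertical) for the 602 genes called in adults; rust points are the 116 genes of chromosomes 1 and 14, grey points the 486 others. Cyp2b10, Cyp2b13 and Derl3 are far from 0 in adults and were not called in newborns, while Ctse and Nr1i3 were called at both ages.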

How the data were processed

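Liver polyadenylated RNA was sequenced in 24 libraries, 8 groups of 3, and 6 of them form the comparison. Per the labels' protocols, RNA Bee was used for extraction and a stranded TruSeq kit for the libraries. The build was mm10 per the submitters' processing notes. No aligner, quantifier or annotation is named there, so these are not given in the sources used here. FPKM per gene, one table for each library, is what the authors deposited. Read depth is unknown, so no counting intervals are given. Each table held 24885 entries with 24342 symbols. Values of the 281 symbols at several loci were summed, 27 date-like entries were kept apart by locus, and 5 genes with a failed estimate were left out, leaving 24339.

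The filter kept 12282 genes that reached 1 FPKM in 3 or more libraries. They were tested on log2(FPKM + 1) with limma 3.58.1 under R 4.3.3 (eBayes with trend and robust), in a model of all 8 groups that leaves 16 residual degrees of freedom. Adjusted p-values are two-sided, by Benjamini and Hochberg's method across the 12282 genes, and calls were made under 0.05. Log2 changes are hCAR-TG minus WT on the log2(FPKM + 1) scale, which understates changes of low genes, and carry their SE. The fit was tested on simulated data. The newborn contrast and the difference between ages came from the same model. Promoters were taken from RefSeq's GRCm38.p6 table by symbol, and 9358 of the tested genes matched.

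The comparison, the 36 pathway lists and the 13 marker lists, taken from textbook knowledge, were chosen with earlier results of these data known. The rule for naming genes took Nr1i3, Nr1i2 and Cyp2b10, then the 12 highest and 12 lowest log2 changes of called genes whose groups were separate (predicted genes left out), up to 3 called members per list, and called genes within 5 Mb of Nr1i3. Chosen after their values were seen were Cyp2b9, Cyp2c29, Cyp2c38, Cyp2c67, Cyp2c68, Cyp3a11, Cyp3a25, Ces2a, Por, Alas1, Slco1a4, Gstm1, Gstm4, Gstm6, Scd1, Gpam, Pnpla3, G0s2, Lpin2, Angptl4, Dhcr7, Srxn1, Hsp90b1, Hspa5, Pdia6, Hsph1, Hspa8, Hlf, Per3, Nr1d2, Arntl, Rarb, Ren1, Pm20d1, Psmb5 and the fat cell markers.

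The other settings tried changed the scaling (median of ratios), the pseudocount (0.1), the filter (none, or 5 FPKM), the libraries in the fit (the compared groups, the adults, or each replicate left out), the variance model (array weights or a constant prior) and the call rule (at least 2-fold), or added the replicate number as a block or the file suffix as a factor. Counts per list and region under these settings were added after seeing the data.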

Additional observations from a re-analysis of the deposited data

Results flagged for a closer look

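The genotype effect was compared between the ages with the interaction term of the limma model (adults minus newborns, adjusted p under 0.05). Of the 102 named genes tested, 49 had an unequal effect. Most of them were named because they were called in adults, and among all 602 adult calls the share with an unequal effect was 41.7%. Their values are differences of log2 changes, and a positive one means that hCAR-TG minus WT was higher in adults. The corn oil libraries of the 2 ages also differ in file suffix, whose part was not tested. Among drug-processing genes and CAR itself the differences were those of Nr1i3 (-1.49), Cyp2b10 (4.65), Cyp2b13 (1.98), Cyp2c29 (3.53), Gstm3 (1.09), Gstm6 (0.60), Gstm7 (0.70), Ugt2b35 (0.54), Cyp3a25 (-0.49), Cyp3a59 (-1.29), Cyp2c40 (-1.44), Cyp2c67 (-0.79), Cyp2c68 (-0.70) and Cyp2c69 (-1.83). Genes of lipid and sterol metabolism and methionine synthesis differed as well, with Scd1 (1.35), Acly (0.80), Elovl5 (1.47), G0s2 (-1.92), Lpin2 (-0.86), Angptl4 (-1.07), Pmvk (0.81), Insig2 (1.20) and Bhmt (1.12). Other nuclear receptors in this set were Ppara (-0.76), Ppard (1.07), Thra (0.45) and Hnf4a (-0.38). The chaperone and ER genes were all negative: Creld2 (-1.55), Herpud1 (-0.95), Pdia4 (-0.62), Derl3 (-2.66), Hspa1b (-0.95), Hsph1 (-1.40) and Hspa8 (-0.92). Clock genes gave Tef (-1.15), Npas2 (1.26) and Arntl (0.84). Near Nr1i3 and on chromosome 14 or elsewhere on chromosome 1 the values were those of Tomm40l (-0.84), Pcp4l1 (2.90), Tstd1 (2.02), Cfap126 (-0.59), Ctse (0.78), Lrtm1 (1.03), Cebpe (-2.51), Scara5 (1.44) and Tcf24 (-0.89). The remaining genes were Chrna4 (1.67), Cib3 (1.40) and Csad (-1.34).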

How the results depend on the processing

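The adult count of 602 calls was within 1.5 times of itself under rescaling (686), both other filters, the pseudocount of 0.1, the adult libraries alone (616) and a constant prior. It was 230 from the compared libraries alone, 1579 with array weights, 109 with the suffix as a factor, 56 with a 2-fold minimum, and 336 (without hCAR-TG replicate 1) to 742 with a replicate left out. The newborn count of 1297 was 817 with the filter at 5 FPKM, 191 from the compared libraries alone, 855 from the newborn libraries alone, 4571 with array weights, 130 with a 2-fold minimum and 801 to 1745 with a replicate left out. The age difference, 852 genes, was 288 from the compared libraries alone, 3007 with array weights, 165 with a 2-fold minimum and 601 to 1228 with a replicate left out. For the newborn contrast and the age difference the suffix could not be fitted. The causes of these shifts were not tested, except that fewer libraries or genes enter by construction.

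Of 94 named called genes, 65 lost their call with the suffix as a factor, 41 from the compared libraries alone, 19 from the adult libraries alone and 11 to 23 with a replicate left out. None of them changed sign. Of the 8 named genes not called, 4 changed sign. The log2 change of Nr1i2 in adults was -0.0352 with array weights and ranged from -0.0536 to 0.122 with a replicate left out. The log2 change of Por in adults was -0.0994 with array weights and ranged from -0.169 to 0.154. The log2 change of Alas1 in adults was -0.183 with array weights and ranged from -0.696 (without hCAR-TG replicate 1) to 0.634. The log2 change of Ces2a in adults was 0.0267 with the suffix as a factor. Replicate numbers did not pair the samples: deviations of same-numbered libraries correlated at 0.0241, 0.0049 and 0.0105 in adults and at 0.103, -0.0498 and -0.0668 in newborns. With a replicate block 582 adult, 1219 newborn and 788 age-difference genes were called, and no named call was lost. Depth is unknown, which limits genes near 1 FPKM.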
